A study of Saccharomyces cerevisiae with 6 samples.

Results

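Small nucleolar RNAs (snoRNAs) were compared between mms21RINGD and WT cells of the budding yeast Saccharomyces cerevisiae. They were taken as the rows of the expression table whose name is snR followed by a number and at most a letter. The 5 such rows that belong to the spliceosome (snR6, snR7-L, snR7-S, snR14 and snR19) were left out. This gave 76 snoRNAs of 7126 features. The mutant strain carries mms21RINGD, an allele of MMS21 named for the RING domain of its product, and the other strain carries wild-type MMS21. Both are in the W303 background and were grown in YPD with CSM to exponential phase at an optical density of 0.6. There were 3 libraries of each genotype, made from ribo-depleted total RNA with the standard Illumina TruSeq kit. No label states that the libraries of a genotype came from separate cultures, so the p-values describe only how these libraries vary, which may be technical.

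Mms21 is a SUMO E3 ligase bound to the Smc5/6 complex. SnoRNAs guide proteins to nascent ribosomal RNA (rRNA) in the nucleolus. Box C/D snoRNAs carry a C box (TGATGA) near the 5′ end and a D box (CTGA) near the 3′ end, and direct the methyltransferase Nop1 to the ribose that pairs at a fixed distance before a D or D' box. Box H/ACA snoRNAs carry an ACA near the 3′ end and direct the pseudouridine synthase Cbf5. A few snoRNAs instead act in the cleavage or folding of the precursor of the 18S rRNA. In yeast most snoRNAs have their own promoter, some are cut from a shared precursor by the RNase III enzyme Rnt1, and some lie in introns of protein-coding genes and are freed from the excised lariat. The RNA ends of independently transcribed snoRNAs are set by the Nrd1-Nab3-Sen1 complex and the nuclear exosome.

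The 76 snoRNAs comprised 47 of box C/D and 29 of box H/ACA, all placed on the R64 genome (sacCer3) through RefSeq. By location, 8 lay in an intron of another gene, 17 belonged to 5 clusters of neighbours within 500 nt of each other on a strand, and 51 were single. The clustered snoRNAs were all of box C/D, as were 6 of the 8 in introns. TGATGA was present in the first 20 bases of 36 of 47 C/D snoRNAs and of 1 of 29 H/ACA snoRNAs. CTGA was present in the last 20 bases of 45 of 47 C/D snoRNAs and of 2 of 29 H/ACA snoRNAs. ACA was found in the last 8 bases of 17 of 29 H/ACA snoRNAs and of 3 of 47 C/D snoRNAs. These searches read the annotated strand only, and a missing match says only that the letters are not in that window.

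For the C/D snoRNAs, RefSeq notes name 55 rRNA positions of methylation in 43 members, counted for each snoRNA, some of them only predicted. The rRNA base was the annotated one for 53, all but C1449 and C1450 of snR24. A stretch of at least 7 bases perfectly complementary to the rRNA around the position was found for 48 of the 55. For 30 the paired base lay exactly 5 bases before a CTGA. Sequences of C/D snoRNAs whose levels the results turn on are given from the RefSeq R64 genome, which is of another strain than W303, in DNA letters. Capitals mark the longest stretch complementary to the rRNA around the position that the text names for that snoRNA. For snR24, snR52 and snR67 the notes name further positions, whose stretches are not marked. The first 5 are of snoRNAs in introns that were lower in the mutant.
snR24 (chrXIII:499984-500072, minus strand): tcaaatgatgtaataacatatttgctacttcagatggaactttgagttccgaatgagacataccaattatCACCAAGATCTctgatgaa
snR54 (chrXIII:163535-163620, minus strand): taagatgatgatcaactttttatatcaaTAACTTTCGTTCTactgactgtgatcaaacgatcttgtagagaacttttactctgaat
snR38 (chrXI:283185-283279, plus strand): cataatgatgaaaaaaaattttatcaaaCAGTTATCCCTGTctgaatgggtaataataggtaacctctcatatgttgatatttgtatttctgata
snR39 (chrVII:365163-365251, minus strand): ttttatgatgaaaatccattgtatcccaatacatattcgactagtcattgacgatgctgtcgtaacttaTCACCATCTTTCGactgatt
snR59 (chrXVI:173827-173904, plus strand): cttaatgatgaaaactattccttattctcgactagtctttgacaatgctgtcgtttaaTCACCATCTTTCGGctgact
The guide of snR24 pairs around C1437 of the large-subunit rRNA, that of snR54 around A974 of the small-subunit rRNA and that of snR38 around G2815 of the large-subunit rRNA. Those of snR39 and snR59, in introns of the paralogous genes RPL7A and RPL7B, pair around the same base, A807 of the large-subunit rRNA.

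The next 4 are snoRNAs outside introns that were lower in the mutant. The gene of snR39B lies outside introns and pairs around G805 of the large-subunit rRNA, beside the site of snR39. The pairing of snR67 is around U2724 and that of snR78 around U2421, both of the large-subunit rRNA, and that of snR77 is around U578 of the small-subunit rRNA.
snR39B (chrVII:366374-366469, minus strand): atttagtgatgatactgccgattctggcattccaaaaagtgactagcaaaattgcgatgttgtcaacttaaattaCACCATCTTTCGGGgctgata
snR67 (chrV:61352-61433, plus strand): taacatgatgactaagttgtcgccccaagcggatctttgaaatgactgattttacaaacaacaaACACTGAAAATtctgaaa
snR78 (chrXIII:297278-297364, plus strand): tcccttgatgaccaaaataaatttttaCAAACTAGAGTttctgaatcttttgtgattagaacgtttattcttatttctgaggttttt
snR77 (chrXIII:297506-297593, plus strand): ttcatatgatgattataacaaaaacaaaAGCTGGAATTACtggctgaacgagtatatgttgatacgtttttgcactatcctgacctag
The last 3 were higher in the mutant. The guide of snR74, from the same cluster as snR78 and snR77, pairs around A28 of the small-subunit rRNA, that of snR61 around A1133 of the large-subunit rRNA and that of snR52 around A420 of the small-subunit rRNA.
snR74 (chrXIII:298138-298225, plus strand): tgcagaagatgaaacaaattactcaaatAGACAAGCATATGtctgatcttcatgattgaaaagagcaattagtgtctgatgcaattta
snR61 (chrXII:794486-794575, minus strand): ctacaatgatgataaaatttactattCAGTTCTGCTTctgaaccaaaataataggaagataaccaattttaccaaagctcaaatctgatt
snR52 (chrV:431129-431220, minus strand): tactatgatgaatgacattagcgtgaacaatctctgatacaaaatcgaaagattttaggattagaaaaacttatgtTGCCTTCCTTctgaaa

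Total depth was 19.3, 24.0 and 20.1 M reads in the mms21RINGD libraries, against 24.6, 20.9 and 21.7 M reads in the WT libraries. Levels are the deposited RPKM, reads scaled by feature length and library size, and 3 reads on a feature of 100 nt came to 1.22 to 1.56 RPKM. Reads of the snoRNAs made up 7.20%, 6.91% and 6.72% of all reads in mms21RINGD, against 6.46%, 6.96% and 7.14% in WT, so the genotypes overlapped in total. As a check of the genotype, MMS21 had 16.6, 12.9 and 13.5 RPKM in mms21RINGD, against 3.23, 3.04 and 2.18 RPKM in WT (log2 fold change 2.01 ± 0.15, adjusted p = 0.000152). Here and below the number after ± of a log2 fold change is its SE. The table does not show which part of MMS21 the reads cover. WT replicate 1 stood apart from the other WT libraries. Its median deviation from each H/ACA snoRNA's mean over the 6 libraries was -0.25 on the log2 scale, against 0.01 and 0.05 in WT replicates 2 and 3 and 0.11, 0.05 and -0.02 in mms21RINGD. Whether the libraries kept strand was not tested, so reads of a snoRNA and of a transcript antisense to it may not be told apart.

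All 76 snoRNAs passed the filter of a mean of at least 1 RPKM, with means over the 6 libraries between 17.8 RPKM for snR53 and 41557 RPKM for snR190. The 6 most abundant were snR190, snR17a, snR37, snR30, snR10 and snR17b. Together these 6 took 57.0%, 57.0% and 57.7% of the snoRNA reads in mms21RINGD, against 59.0%, 57.9% and 58.0% in WT. The most abundant, snR190 (chrX:139761-139950, minus strand), assists the early assembly of the large subunit and had 42094, 38062 and 39231 RPKM in mms21RINGD, against 39865, 43725 and 46364 RPKM in WT, with overlapping genotypes (log2 fold change -0.12 ± 0.061, adjusted p = 0.133). The H/ACA snoRNA snR37 (chrX:228094-228479, minus strand), with a structural role in early large-subunit assembly beside its guide function, had 20140.0, 19331 and 18396 RPKM in mms21RINGD, against 17763, 19526 and 19894 RPKM in WT, again with overlap (0.02 ± 0.051, adjusted p = 0.783).

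**Figure D1:**
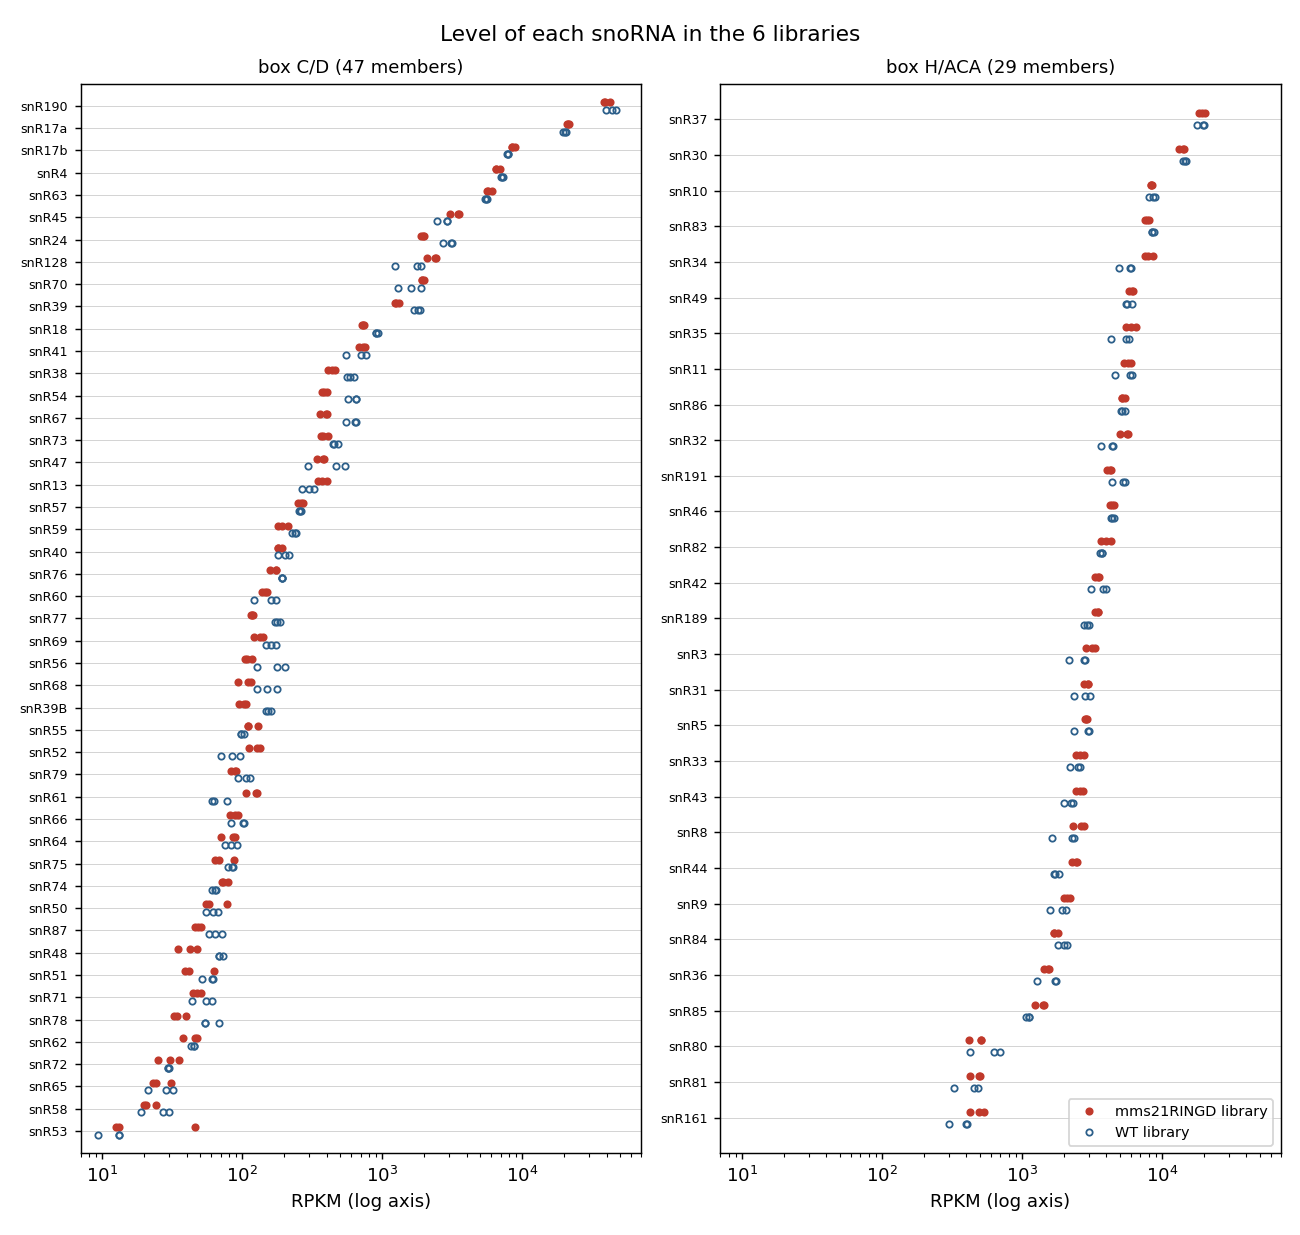
Level of each of the 76 snoRNAs in RPKM on a log axis, with box C/D left and box H/ACA right, sorted by the mean over 6 libraries. Filled points are the 3 mms21RINGD libraries and open points the 3 WT libraries. H/ACA snoRNAs centre on 3168 RPKM and C/D snoRNAs on 147.8 RPKM.

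Levels went with annotated length. The C/D snoRNAs had a median level of 147.8 RPKM and a median length of 98 nt, while the H/ACA snoRNAs had a median of 3168 RPKM at 204 nt. Across all 76, log2 level and log2 length had a Pearson r of 0.771 and a Spearman rho of 0.769, given as a description over RNAs that share the same libraries. Within the classes rho was 0.359 for C/D and 0.527 for H/ACA (Pearson r 0.709 and 0.454), so part of the pooled value is the difference between classes. The 40 snoRNAs under 150 nt, all of box C/D, took 1.70%, 1.79% and 1.71% of the snoRNA reads in mms21RINGD, against 1.93%, 2.06% and 2.00% in WT. RNAs of this length are near or below the insert lengths a fragment library favours, and the part of length in these levels was not tested.

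Between genotypes, the snoRNAs parted in both directions. In mms21RINGD, 14 were higher, 22 were lower and 40 did not pass an adjusted p of 0.05 (limma on log2(RPKM + 1), Benjamini-Hochberg over all 6731 features fitted). Over all fitted features, 42.7% were called higher and 10.9% lower, whereas 18.4% of the snoRNAs were called higher and 28.9% lower. The median log2 fold change of the snoRNAs was -0.03, beside 0.24 over all features, and single values lay between -0.75 and 0.82. The libraries of the genotypes did not overlap for 18 snoRNAs with mms21RINGD above and for 22 with mms21RINGD below, beside 50.1% and 14.3% of all features.

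These counts moved with single libraries and with the scaling. Without WT replicate 1, 16 snoRNAs were higher and 32 lower, with a median of -0.07, beside 57.3% and 15.3% of all features and an all-feature median of 0.29. Leaving out any other library gave fewer falls. Without mms21RINGD replicate 1 there were 8 higher and 15 lower, beside 31.8% and 7.36% of all features. Without mms21RINGD replicate 2 the counts were again 8 and 15, beside 28.5% and 6.83%, and without mms21RINGD replicate 3 they were 13 and 11, beside 27.6% and 6.46%. Without WT replicate 2 they were 10 and 14, beside 29.4% and 6.92%, and without WT replicate 3 they were 15 and 14, beside 31.7% and 7.85%.

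Under median-of-ratios scaling, which set the all-feature median to near 0, 2 snoRNAs were higher and 31 lower with a median of -0.28, beside 25.4% and 27.1% of all features. Scaled by the snoRNAs' own median ratio, 18 were higher and 17 lower, beside 31.8% and 7.34% of all features, and the all-feature median was 0.26. A rise given below is therefore a rise relative to total reads. Quantile normalization gave 26 higher and 21 lower with a median of -0.01, beside 20.3% and 34.6% of all features and an all-feature median of -0.10. It added 13 calls with an unchanged sign and those of snR42 and snR46 with a changed sign, ended the falls of snR18 and snR191 and the rises of snR74 and snR161, and turned snR84, lower in the main test, to a rise. Scaling by the own ratio added 6 calls. It ended the falls of snR4, snR59, snR69, snR76, snR79 and snR83 and the rise of snR74. In all 18 alternative settings that can change a snoRNA value, 10 of the 22 falls held (snR24, snR38, snR39, snR39B, snR48, snR54, snR67, snR77, snR78 and snR87), and 2 of the 14 rises (snR52 and snR61). Every other rise was lost under median-of-ratios scaling, which lowers all fold changes, and no fall was lost there. For snR32, snR34, snR44, snR85 and snR189 it was the only setting that ended the call. These counts therefore do not compare how stable rises and falls are.

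**Figure D2:**
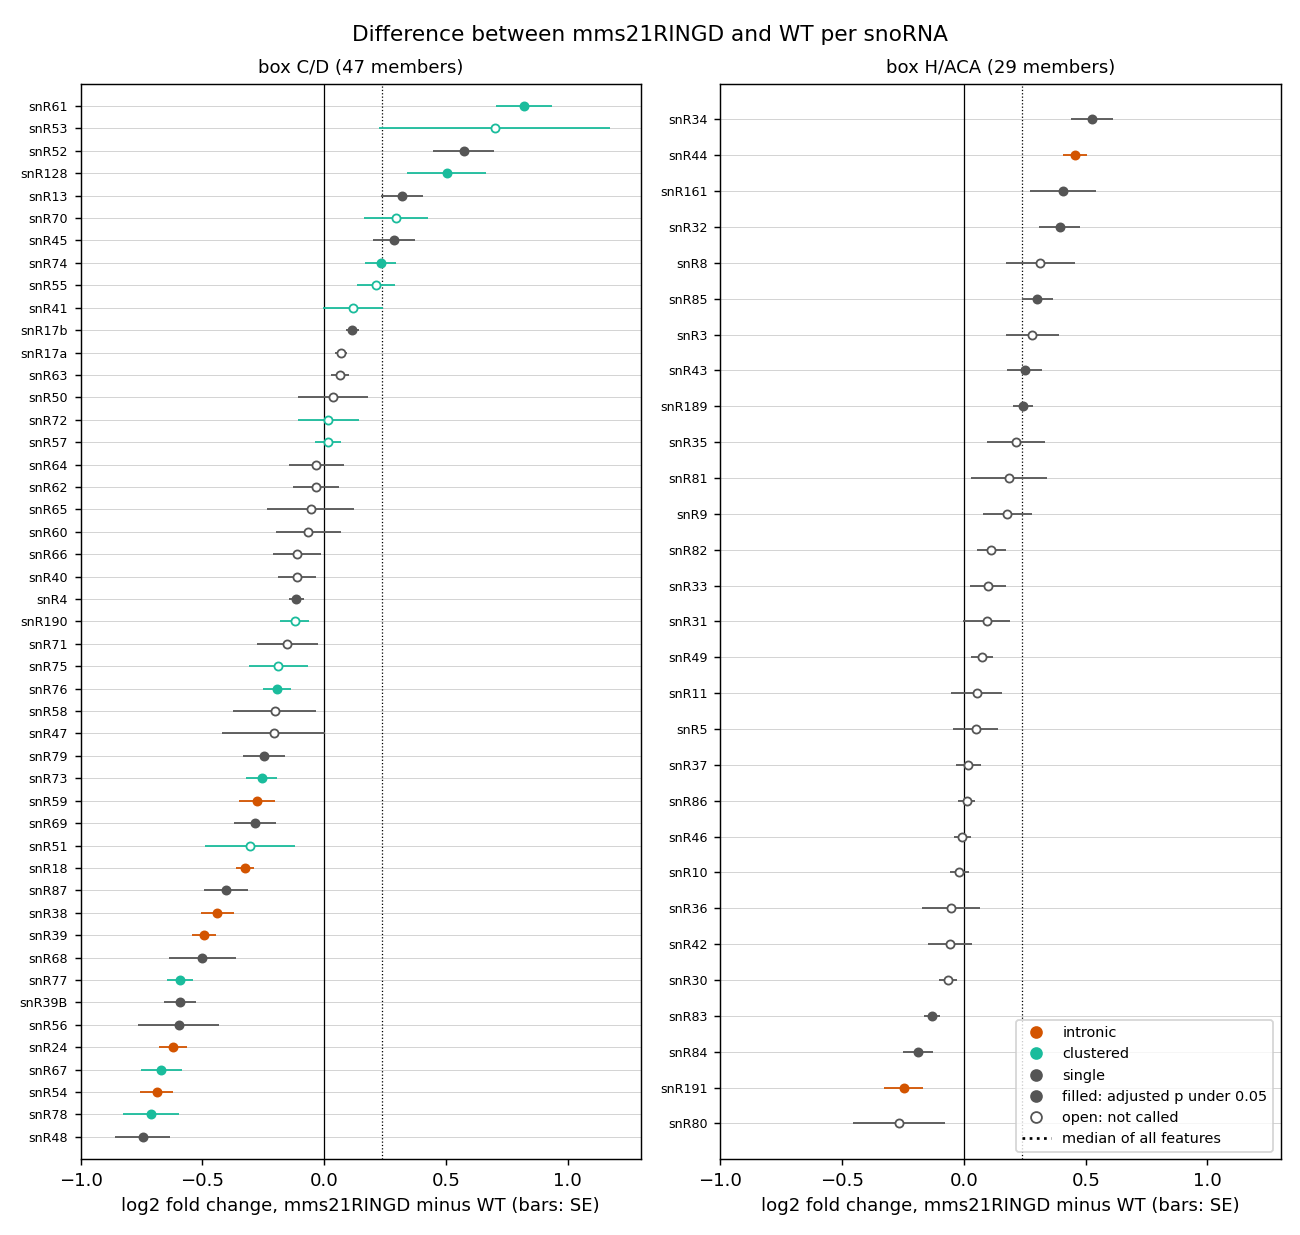
Log2 fold change of each snoRNA, mms21RINGD minus WT on the log2(RPKM + 1) scale, with bars for the SE from 3 libraries of each genotype. Filled points passed an adjusted p of 0.05, colours give the location, and the dotted line is the median of all features, 0.24. The 6 C/D snoRNAs in introns lie in the lower part of the left panel, and 31 of 47 C/D values and 9 of 29 H/ACA values are below 0.

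The largest falls were all of box C/D and lay across locations. The large-subunit guide snR48 (chrVII:609584-609696, plus strand), single on chromosome VII, had 47.3, 42.3 and 34.7 RPKM in mms21RINGD, against 67.9, 68.2 and 72.9 RPKM in WT, and every mutant library was below every WT library (log2 fold change -0.75 ± 0.11, adjusted p = 0.00269). Leading the cluster on chromosome XIII, snR78 had 39.4, 34.4 and 32.5 RPKM in mms21RINGD, against 54.6, 53.9 and 67.7 RPKM in WT (-0.71 ± 0.11, adjusted p = 0.00328). For snR54, in an intron of IMD4, the levels were 406, 382 and 371 RPKM in mms21RINGD, against 570.4, 647 and 651 RPKM in WT (-0.69 ± 0.069, adjusted p = 0.000482). These 3 had no mutant library within the WT range.

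The same separation held for the next 3. The cluster member snR67 on chromosome V had 396, 402 and 357 RPKM in mms21RINGD, against 549, 637 and 654 RPKM in WT (-0.67 ± 0.084, adjusted p = 0.00119). In an intron of ASC1, snR24 had 1975, 1963 and 1883 RPKM in mms21RINGD, against 2729, 3126 and 3107 RPKM in WT (-0.62 ± 0.059, adjusted p = 0.000402). The small-subunit guide snR56, a single snoRNA (chrII:88190-88277, plus strand), had 117, 109 and 104 RPKM in mms21RINGD, against 127, 178 and 203 RPKM in WT (-0.60 ± 0.17, adjusted p = 0.0238), with WT replicate 1 close to the mutant libraries. Its call was lost when any mutant library or WT replicate 2 or 3 was left out.

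Among the rises, the largest called was snR61, last in its cluster on chromosome XII, with 125, 106 and 127 RPKM in mms21RINGD, against 60.9, 63.3 and 77.7 RPKM in WT (0.82 ± 0.12, adjusted p = 0.00193). The C/D guide snR52, single on chromosome V, had 127, 135 and 112 RPKM in mms21RINGD, against 96.2, 70.8 and 84.6 RPKM in WT (0.57 ± 0.13, adjusted p = 0.0101). Both had all mutant libraries above all WT libraries. The H/ACA guide snR34 (chrXII:899180-899382, plus strand) had 8547, 7926 and 7601 RPKM in mms21RINGD, against 4887, 5867 and 6029 RPKM in WT (0.52 ± 0.086, adjusted p = 0.00344), and WT replicate 1 was its lowest library. The call of snR34 was lost under median-of-ratios scaling.

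For snR128, a C/D snoRNA also called U14 that is needed for 18S rRNA, the levels were 2366, 2400.0 and 2083 RPKM in mms21RINGD, against 1229.5, 1895 and 1777 RPKM in WT (0.50 ± 0.16, adjusted p = 0.0376). Its genotypes did not overlap, but WT replicate 1 lay far below the other WT libraries. The call of snR128 was lost without any mutant library or without WT replicate 3. It was also lost under median-of-ratios scaling, as were the calls of snR44 and snR161, given next. In an intron of RPS22B, snR44 (chrXII:856710-856920, plus strand), an H/ACA guide, had 2449.8, 2429 and 2274 RPKM in mms21RINGD, against 1682, 1827 and 1706 RPKM in WT (0.46 ± 0.048, adjusted p = 0.000599). The H/ACA snoRNA snR161 (chrII:307185-307345, minus strand) had 530.0, 493 and 427 RPKM in mms21RINGD, against 299.9, 396 and 403 RPKM in WT (0.41 ± 0.13, adjusted p = 0.0414), and lost its call without mms21RINGD replicate 1 or 2 or WT replicate 2.

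The fitted fold change of snR53, 0.70 with an SE of 0.47, did not pass the test (adjusted p = 0.245). It rested on 100 reads in mms21RINGD replicate 2 (95% exact Poisson interval 81.4 to 121.6, for counting error only). The other mutant libraries held 22 and 24 reads, and the WT libraries held 21, 25 and 26 reads.

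Position on chromosome XII went with several of the rises. Beyond the ribosomal DNA repeats of chromosome XII lie snR34, snR44, snR55, snR57 and snR61, of which 3 were higher (snR34, snR44 and snR61) and none was lower; their median log2 difference was 0.46. Of the 278 other fitted features placed there, 214 (77.0%) were higher and 13 lower, with a median of 0.48. On the other chromosomes, 2311 of 5334 features were higher and 609 lower, with a median of 0.24, while 11 of 69 snoRNAs were higher and 21 lower. Without those 5 snoRNAs, 11 of the remaining 71 were higher and 22 lower, with a median of -0.05. The region was singled out after the values were seen, and its part in the rises of snR34, snR44 and snR61 was not tested.

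By box class, the C/D snoRNAs held 19 of the 22 falls, and the rises were split evenly. Of 47 C/D snoRNAs, 7 were higher, 19 lower and 21 not called, and their median log2 difference was -0.12. Of 29 H/ACA snoRNAs, 7 were higher, 3 lower (snR83, snR84 and snR191) and 19 not called, with a median of 0.09. No test of the difference between the classes was made. Under median-of-ratios scaling the counts were 2 higher and 24 lower for C/D and 0 higher and 7 lower for H/ACA. Under quantile normalization they were 8 higher and 20 lower for C/D and 18 higher and 1 lower for H/ACA. Leaving out WT replicate 1 gave 8 and 26 for C/D and 8 and 6 for H/ACA. Shares over all features, higher and lower, were 42.7% and 10.9% in the main test and 25.4% and 27.1% under median-of-ratios scaling. They were 20.3% and 34.6% under quantile normalization and 57.3% and 15.3% without WT replicate 1.

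Length differs between the box classes, and the falls were mostly in short C/D snoRNAs. Of the 40 C/D snoRNAs under 150 nt, 5 were higher and 18 lower, with a median of -0.20. The shares over all features were 42.7% higher and 10.9% lower. The 7 C/D snoRNAs of 150 nt or longer had 2 higher (snR17b and snR45) and 1 lower (snR4), with a median of 0.07, beside 0.09 for the H/ACA snoRNAs, which are all of 161 nt or longer. Outside introns, the 34 short C/D snoRNAs had 5 higher, 12 lower and a median of -0.13. As a description over RNAs of the same libraries, log2 fold change and length had a Spearman rho of 0.373 over all 76, 0.307 over the C/D and -0.448 over the H/ACA snoRNAs.

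**Figure D3:**
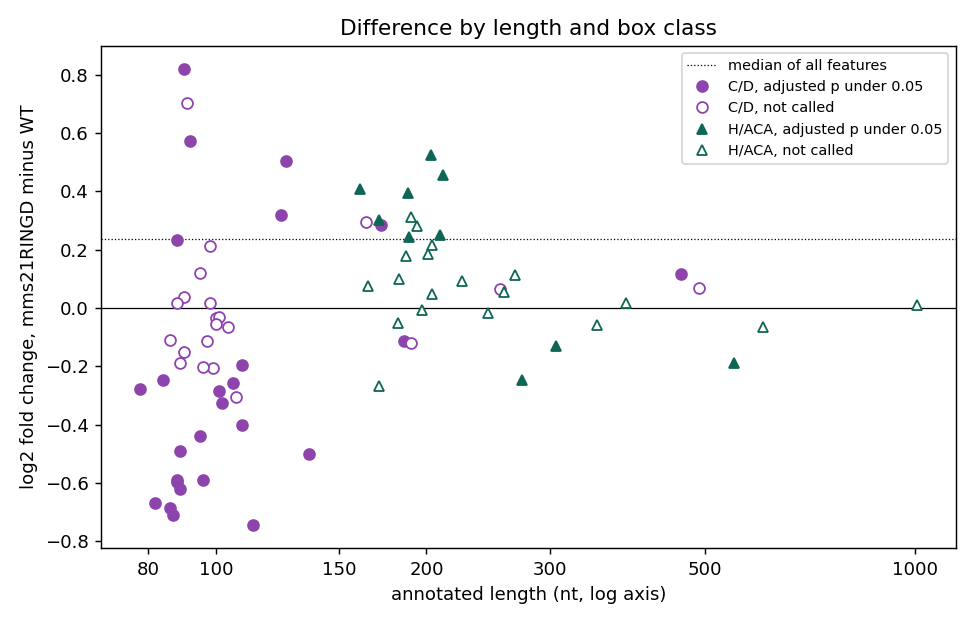
Log2 fold change of each snoRNA, mms21RINGD minus WT, against annotated length in nt on a log axis. Circles are box C/D and triangles box H/ACA, filled where the adjusted p was under 0.05, and the dotted line is the median of all features. Values under 150 nt span -0.75 to 0.82, and all values below -0.30 belong to C/D snoRNAs under 150 nt.

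Further single C/D snoRNAs fell, among them the large-subunit guides snR39B, snR68 and snR69 and the small-subunit guides snR87 and snR79. For snR39B the levels were 95.2, 103 and 107 RPKM in mms21RINGD, against 148, 152 and 159.7 RPKM in WT (-0.59 ± 0.065, adjusted p = 0.000733), and the libraries of each genotype lay close together. For snR87 they were 51.0, 46.2 and 48.3 RPKM in mms21RINGD, against 71.5, 58.0 and 64.2 RPKM in WT (-0.40 ± 0.09, adjusted p = 0.011). Both falls held in all 18 alternative settings. For snR68 (chrIX:97111-97246, plus strand) they were 111, 115 and 93.5 RPKM in mms21RINGD, against 127, 150.3 and 177 RPKM in WT (-0.50 ± 0.14, adjusted p = 0.0222), and for snR69 (chrXI:364776-364876, plus strand) 121, 140.5 and 133 RPKM in mms21RINGD, against 174, 147 and 160.4 RPKM in WT (-0.28 ± 0.087, adjusted p = 0.0321). Neither overlapped, and both calls were lost without mms21RINGD replicate 1 or 3 or WT replicate 3, that of snR68 also without WT replicate 2. The smallest of these falls was snR79, with 90.8, 88.2 and 83.4 RPKM in mms21RINGD, against 93.3, 106 and 113 RPKM in WT (-0.25 ± 0.085, adjusted p = 0.0467), and its call was lost without any library other than WT replicate 1.

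Single H/ACA snoRNAs made up most of the rises of that class. For snR32 (chrVIII:381540-381727, plus strand) the levels were 5704, 5639 and 5007 RPKM in mms21RINGD, against 3684, 4425 and 4365 RPKM in WT (0.39 ± 0.084, adjusted p = 0.00939). For snR85 (chrXIII:67768-67938, minus strand) they were 1398, 1440.2 and 1245 RPKM in mms21RINGD, against 1058, 1120.4 and 1128 RPKM in WT (0.30 ± 0.064, adjusted p = 0.00884), and for snR189 (chrIII:178610-178798, minus strand) 3483, 3506 and 3308 RPKM in mms21RINGD, against 2926, 2997 and 2787 RPKM in WT (0.24 ± 0.04, adjusted p = 0.00367). In these 3 every mutant library was above every WT library, and each call was lost only under median-of-ratios scaling among the 18 alternatives. The rise of snR43 (2730.3, 2599 and 2416 RPKM in mms21RINGD, against 1979, 2242 and 2300.5 RPKM in WT; 0.25 ± 0.071, adjusted p = 0.0253) was smaller and was lost without mms21RINGD replicate 1 or 2 or WT replicate 2, and it turned to -0.0064 under median-of-ratios scaling; snR189 turned to -0.014. Outside the H/ACA class, the C/D snoRNA snR13 had 370.1, 400.0 and 348 RPKM in mms21RINGD, against 269, 300.4 and 327 RPKM in WT (0.32 ± 0.088, adjusted p = 0.0223), without overlap, and lost its call without mms21RINGD replicate 1 or 2 or WT replicate 2. Under median-of-ratios scaling snR13 was no longer called either.

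The single H/ACA snoRNAs that fell were snR83, with 8039.7, 7778 and 7492 RPKM in mms21RINGD, against 8417, 8410.2 and 8709 RPKM in WT (-0.13 ± 0.032, adjusted p = 0.0152), and snR84, with 1802, 1676 and 1678 RPKM in mms21RINGD, against 1812, 1984 and 2095 RPKM in WT (-0.19 ± 0.062, adjusted p = 0.0387). For snR83 the genotypes did not overlap, and its call was lost without mms21RINGD replicate 2 or 3. For snR84, WT replicate 1 lay beside mms21RINGD replicate 1, and its call was lost without any library other than WT replicate 1. Other snoRNAs had WT libraries that differed among themselves more than from the mutant. The H/ACA snoRNA snR80 had 506, 512 and 417 RPKM in mms21RINGD, against 427, 632 and 700.2 RPKM in WT (-0.27 ± 0.19, adjusted p = 0.261), and the C/D snoRNA snR47 had 381, 377 and 339.7 RPKM in mms21RINGD, against 297, 464 and 546 RPKM in WT (-0.21 ± 0.21, adjusted p = 0.435). In both, WT replicates 2 and 3 were above every mutant library and WT replicate 1 was not.

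By rRNA target in the RefSeq notes, the C/D guides of the large subunit counted 2 higher and 13 lower of 27, with a median of -0.19. The C/D guides of the small subunit counted 3 higher and 6 lower of 14, with a median of 0.07. H/ACA guides of the large subunit counted 3 higher and 2 lower of 18. For the small subunit there were 6 H/ACA guides, of which 2 were higher and 1 was lower. Beside these counts, 42.7% of all features were called higher and 10.9% lower. The large-subunit C/D guides that fell include snR24, snR38, snR39, snR48, snR67 and snR78, and the small-subunit ones snR54 and snR77.

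The snoRNAs that act in cleavage of the 18S rRNA precursor were abundant. U3, the core of the small-subunit processome, is made from snR17a (chrXV:780107-780596, plus strand) and snR17b (chrXVI:281056-281517, minus strand). The deposited length of both is the gene span including its intron. For snR17a the levels were 21387, 20846 and 21023 RPKM in mms21RINGD, against 19465, 20272 and 20573 RPKM in WT, with no overlap between genotypes (log2 fold change 0.07 ± 0.025, adjusted p = 0.0537). For snR17b they were 8802, 8400.2 and 8397 RPKM in mms21RINGD, against 7816, 7857 and 7951 RPKM in WT, again without overlap (0.12 ± 0.027, adjusted p = 0.012). The rise of snR17b turned to -0.14 under median-of-ratios scaling. The copies share an exact stretch of 77 nt, so reads from there could be assigned to either, and the ratio of snR17a to snR17b overlapped between genotypes (2.43, 2.48 and 2.50 in mms21RINGD, against 2.49, 2.58 and 2.59 in WT, exact two-sided permutation p = 0.2).

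Of the others, snR128 (U14) was higher, as given above, and snR30 and snR10 did not pass the test. The H/ACA snoRNA snR30 (chrXII:198784-199389, plus strand), needed for 18S rRNA, had 14254, 14142 and 13152 RPKM in mms21RINGD, against 14093, 14520.1 and 14844 RPKM in WT (-0.07 ± 0.037, adjusted p = 0.174), with overlap. For snR10 (chrVII:345986-346230, plus strand), which both guides pseudouridylation and aids cleavage, the levels were 8409.8, 8288 and 8340.3 RPKM in mms21RINGD, against 8001, 8562 and 8819 RPKM in WT (-0.02 ± 0.038, adjusted p = 0.695), with the mutant libraries inside the WT range.

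The snoRNAs snR4 and snR45 guide the acetyltransferase Kre33 to cytidines of the 18S rRNA, and their levels moved in opposite directions. For snR4 (chrV:424698-424883, plus strand) they were 6906, 6527 and 6498 RPKM in mms21RINGD, against 7097, 7199 and 7277 RPKM in WT (-0.11 ± 0.031, adjusted p = 0.0208), without overlap. For snR45 (chrXVI:821732-821903, plus strand) they were 3553, 3447 and 3046 RPKM in mms21RINGD, against 2454, 2916 and 2875 RPKM in WT (0.29 ± 0.085, adjusted p = 0.0296), without overlap and with WT replicate 1 lowest. Both calls were lost without mms21RINGD replicate 2, and each also without other single libraries. Under median-of-ratios scaling snR45 was no longer called.

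Of the 8 snoRNAs in introns, 7 were lower in mms21RINGD and 1, snR44, was higher, with a median log2 fold change of -0.38, beside 10 higher and 10 lower among the 51 single snoRNAs (median 0.01). All 6 C/D snoRNAs in introns were lower (median -0.46), as was the H/ACA snoRNA snR191. The hosts of the 7 that fell were lower too, while the host of snR44 was not called once the reads of snR44 were taken out. Leaving out WT replicate 1 kept the counts at 1 higher and 7 lower. Median-of-ratios scaling gave 0 higher and 7 lower, and quantile normalization 1 higher and 5 lower. Shares over all features, higher and lower, were 42.7% and 10.9% in the main test and 57.3% and 15.3% without WT replicate 1. They were 25.4% and 27.1% under median-of-ratios scaling and 20.3% and 34.6% under quantile normalization.

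The deposited reads of a host gene are counted over its whole span, introns included, and were taken to hold the reads of its snoRNA. Reads of snR191 came to 86.7% to 88.6% of the reads of NOG2, those of snR44 55.6% to 67.8% of RPS22B, and those of the other 6 between 3.10% and 19.7% of their hosts. Elsewhere, the read totals of overlapping features were close or far apart. Such totals do not show whether the reads in the overlap were counted for both features. The dubious gene YGL088W, which overlaps snR10 by 216 nt, held 39667 reads beside 39693 of snR10 in mms21RINGD replicate 1. In contrast, YOR235W, which overlaps snR17a by 78 nt, held 219 reads beside 201887 of snR17a in that library. The host values below are therefore the host reads less the snoRNA reads, per kilobase of the remaining gene, an alternative chosen after the data were seen. Whether reads that cross an intron were also given to its snoRNA was not tested.

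On that measure, ASC1, the yeast RACK1 of the small ribosomal subunit and host of snR24, averaged 2830 ± 33.2 RPKM in mms21RINGD and 4478 ± 347.0 RPKM in WT (SD, n = 3 each), a log2 fold change of -0.66, beside -0.62 for snR24. The IMP dehydrogenase gene IMD4 averaged 358 ± 6.70 RPKM in mms21RINGD and 552 ± 53.0 RPKM in WT, a log2 fold change of -0.62, beside -0.69 for its snR54. The ribosomal protein gene RPL7A averaged 299 ± 4.74 RPKM in mms21RINGD and 458 ± 9.39 RPKM in WT, a log2 fold change of -0.61. Its snR39 had 1253, 1319 and 1235 RPKM in mms21RINGD, against 1868, 1791 and 1696 RPKM in WT (-0.49 ± 0.049, adjusted p = 0.000481), without overlap.

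For RPL7B, the paralog of RPL7A, the averages were 55.6 ± 3.63 RPKM in mms21RINGD and 70.2 ± 5.61 RPKM in WT, a log2 fold change of -0.33. Its snR59 had 179.7, 213 and 191 RPKM in mms21RINGD, against 242, 237 and 227 RPKM in WT (-0.28 ± 0.074, adjusted p = 0.0202), so both guides to A807 were lower, without overlap for either. The call of snR59 was lost without mms21RINGD replicate 1 or 3 or WT replicate 2. The ratio of snR39 to snR59 within a library was 6.97, 6.20 and 6.46 in mms21RINGD, against 7.72, 7.56 and 7.46 in WT (exact two-sided permutation p = 0.1, the smallest that 3 against 3 allows).

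The remaining hosts of C/D snoRNAs make translation elongation factors. TEF4 averaged 833 ± 15.96 RPKM in mms21RINGD and 1161 ± 38.0 RPKM in WT, a log2 fold change of -0.48, and its snR38 had 462, 439.7 and 406 RPKM in mms21RINGD, against 585, 627 and 561 RPKM in WT (-0.44 ± 0.068, adjusted p = 0.00278). EFB1 averaged 1189 ± 9.16 RPKM in mms21RINGD and 1529 ± 56.2 RPKM in WT, a log2 fold change of -0.36, and its snR18 had 724, 721 and 737 RPKM in mms21RINGD, against 907, 924 and 902 RPKM in WT (-0.32 ± 0.037, adjusted p = 0.000786). Neither snoRNA had a mutant library within the WT range.

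The H/ACA snoRNAs in introns split. NOG2, a GTPase of large-subunit assembly, averaged 90.9 ± 1.94 RPKM in mms21RINGD and 114 ± 6.35 RPKM in WT, a log2 fold change of -0.32. Its snR191 (chrXIV:721938-722211, minus strand) had 4337, 4212 and 4067 RPKM in mms21RINGD, against 4388, 5243 and 5403 RPKM in WT (-0.25 ± 0.079, adjusted p = 0.0371), with WT replicate 1 close to the mutant libraries, and its call was lost without any library other than WT replicate 1. RPS22B, a small-subunit ribosomal protein gene, was higher as deposited (0.23, adjusted p = 0.00446), but less the reads of snR44 it had 369.8, 374 and 378 RPKM in mms21RINGD, against 426, 404 and 398 RPKM in WT. That difference, -0.13 with an SE of 0.047, had an adjusted p of 0.0543, and snR44 itself was at 0.46.

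**Figure D4:**
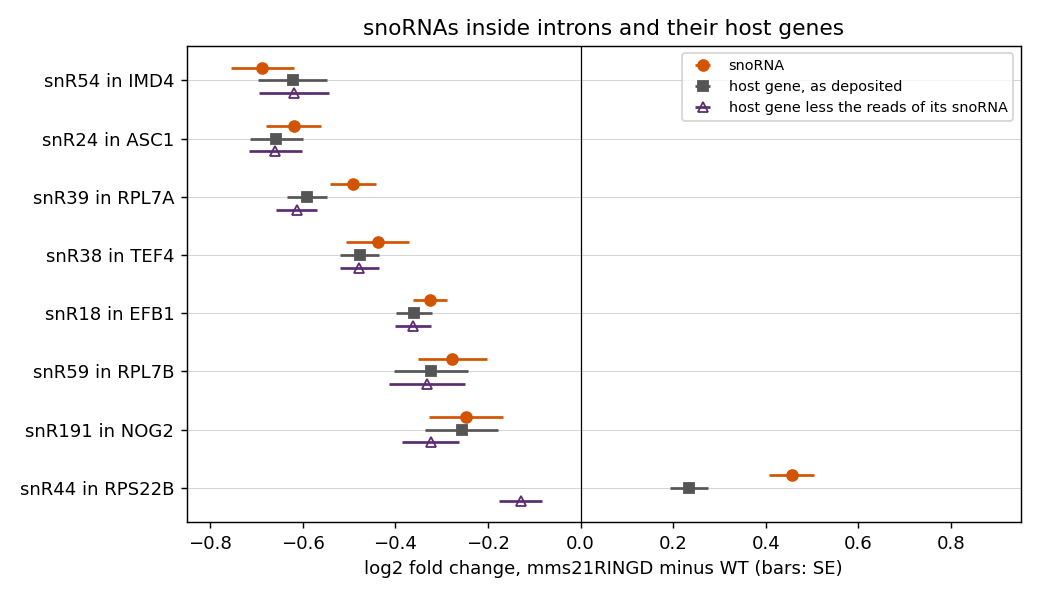
Log2 fold change, mms21RINGD minus WT, with SE bars, of the 8 snoRNAs in introns (circles), of their host genes as deposited (squares) and of the host genes less the reads of the snoRNA (triangles). In 7 pairs all values lie between -0.69 and -0.25. For snR44 in RPS22B the snoRNA is at 0.46, the host as deposited at 0.23 and the host less the snoRNA's reads at -0.13.

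In the 5 clusters, snoRNAs of a shared precursor differed in level, and the cluster on chromosome XIII held calls in both directions. The cluster of 7 on chromosome XIII (chrXIII:297278-298651, plus strand) spans 1374 nt, and mean levels within it spread over 14.1-fold. Its first members snR78, snR77 and snR76 were lower, as was snR73, whereas snR74 was higher and snR75 and snR72 were not called. For snR77 the levels were 116, 120.1 and 117 RPKM in mms21RINGD, against 185, 176 and 172 RPKM in WT (-0.59 ± 0.054, adjusted p = 0.00033). For snR74 they were 78.5, 71.9 and 72.8 RPKM in mms21RINGD, against 63.7, 60.9 and 64.9 RPKM in WT (0.23 ± 0.062, adjusted p = 0.0205), without overlap. The rise of snR74 was -0.02 under median-of-ratios scaling, and its call was lost without any mutant library or without WT replicate 2.

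Ratios within a library do not depend on scaling. The ratio of snR77 to snR74 was 1.48, 1.67 and 1.60 in mms21RINGD, against 2.91, 2.89 and 2.65 in WT, and that of snR78 to snR74 was 0.502, 0.479 and 0.447 in mms21RINGD, against 0.858, 0.885 and 1.04 in WT. Neither overlapped, which the choice of members fixes, since all mutant libraries were below WT for snR77 and snR78 and above WT for snR74. The ratios are therefore a description, with no test. The other members of the cluster had smaller differences. The levels of snR76 were 173, 174 and 158 RPKM in mms21RINGD, against 194, 191 and 193 RPKM in WT (-0.19 ± 0.057, adjusted p = 0.0284). Those of snR73 were 411, 378 and 365 RPKM in mms21RINGD, against 446, 449.8 and 482 RPKM in WT (-0.26 ± 0.063, adjusted p = 0.0148). Every mutant library was below every WT library for snR76 and snR73, and leaving out single libraries lost the calls of both. In snR75, with 87.5, 68.3 and 63.6 RPKM in mms21RINGD, against 85.3, 78.5 and 84.3 RPKM in WT, and in snR72, with 35.5, 30.6 and 24.8 RPKM in mms21RINGD, against 29.4, 29.8 and 29.6 RPKM in WT, the genotypes overlapped.

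On chromosome XII (chrXII:794486-795024, minus strand) snR57, snR55 and snR61 follow each other. The first, snR57, had 261, 250.1 and 271 RPKM in mms21RINGD, against 257, 263 and 253 RPKM in WT (0.02 ± 0.052, adjusted p = 0.809), with overlap. The second, snR55, had 111, 110.4 and 129 RPKM in mms21RINGD, against 98.6, 98.7 and 103 RPKM in WT (0.21 ± 0.076, adjusted p = 0.0525), and the third, snR61, was the largest rise. The ratio of snR57 to snR61 was 2.10, 2.35 and 2.13 in mms21RINGD, against 4.23, 4.16 and 3.25 in WT, a description of a pair chosen with its values known. Within this cluster, then, the level of snR61 relative to snR57 was higher in each mutant library than in any WT library.

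On chromosome X, snR190 and snR128 lie 69 nt apart in a shared precursor, with mean levels 21.2-fold apart. Their ratio was 17.8, 15.9 and 18.8 in mms21RINGD, against 32.4, 23.1 and 26.1 in WT, without overlap, given as a description since snR128 was known to be higher in every mutant library. On chromosome V, snR67 was lower and its neighbour snR53, at a 27.98-fold lower mean level, was not called. On chromosome XVI, snR41, snR70 and snR51 were not called, with mean levels spread over 33.6-fold. There snR41 had 731, 759 and 687 RPKM in mms21RINGD, against 549, 765 and 708 RPKM in WT, snR70 had 1924, 1979 and 1917 RPKM in mms21RINGD, against 1287, 1608 and 1904 RPKM in WT and snR51 had 38.8, 62.6 and 41.3 RPKM in mms21RINGD, against 51.2, 61.7 and 60.7 RPKM in WT. The ratio of snR41 to snR70 overlapped (0.380, 0.383 and 0.358 in mms21RINGD, against 0.427, 0.476 and 0.372 in WT, exact two-sided permutation p = 0.3). In all, 12 pairs within clusters or between paralogs were compared with the values of their members known, and no exact p of 3 against 3 libraries can fall under 0.1.

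**Figure D5:**
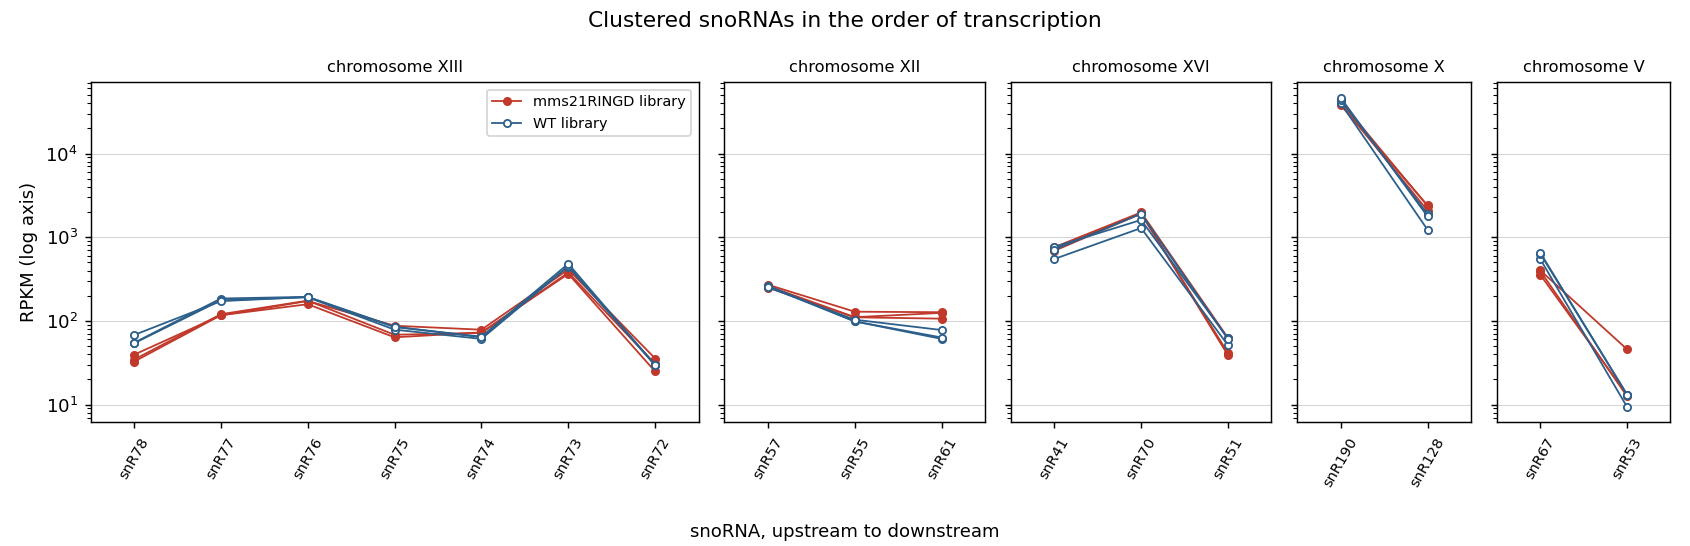
Level of the 17 clustered snoRNAs in RPKM on a log axis, in the order of transcription, with a line for each library, filled for mms21RINGD and open for WT. The mutant lines lie under the WT lines at snR78 and snR77 and above them at snR74, snR61 and snR128.

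Messages of the snoRNP proteins and of factors for making snoRNAs were read from lists of 31 genes, of which 4 were higher, 9 lower and 18 not called (median -0.12), beside 42.7% higher and 10.9% lower over all features. Of the 4 core proteins of C/D snoRNPs, 3 were lower and none was higher. NOP1, the methyltransferase, had 399.6, 395 and 381 RPKM in mms21RINGD, against 485, 638 and 616 RPKM in WT (-0.55 ± 0.11, adjusted p = 0.00607). NOP58 had 215, 221 and 226 RPKM in mms21RINGD, against 264, 326 and 318 RPKM in WT (-0.45 ± 0.088, adjusted p = 0.00677), and SNU13, which binds the C/D motif, had 469.8, 486 and 459 RPKM in mms21RINGD, against 551, 779.9 and 743 RPKM in WT (-0.53 ± 0.13, adjusted p = 0.0144). None of these overlapped between genotypes. NOP56 was not called (-0.18 ± 0.11, adjusted p = 0.218).

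The core proteins of H/ACA snoRNPs gave the same count, 3 lower of 4. NOP10 had 575, 533 and 531 RPKM in mms21RINGD, against 689.9, 873 and 919 RPKM in WT (-0.59 ± 0.11, adjusted p = 0.00563). GAR1 had a log2 fold change of -0.50 ± 0.13, adjusted p = 0.0176, and NHP2 one of -0.49 ± 0.14, adjusted p = 0.0251. The synthase gene CBF5 was not called (-0.02 ± 0.093, adjusted p = 0.833). The calls of GAR1 and NHP2 were lost without any mutant library or without WT replicate 2, that of NHP2 also without WT replicate 3, and that of SNU13 without mms21RINGD replicate 3. WT replicate 1 had the lowest WT level of each of these core genes. So messages of 6 of 8 core proteins, 3 of each class, were lower, beside 10.9% of all features, while among the RNAs 19 of 47 C/D and 3 of 29 H/ACA snoRNAs were.

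Of 9 assembly factors, 2 were higher, none was lower and 7 were not called, beside 42.7% higher and 10.9% lower over all features. PIH1 (0.46 ± 0.07, adjusted p = 0.0026) and TAH1 (0.34 ± 0.092, adjusted p = 0.0209) both belong to the R2TP chaperone complex that helps to build C/D snoRNPs. The ATPase genes of that complex, RVB1 (-0.01 ± 0.055, adjusted p = 0.84) and RVB2 (-0.13 ± 0.065, adjusted p = 0.13), were not called. Under quantile normalization PIH1 turned to -0.0061. The rise of TAH1 was lost under median-of-ratios, quantile and own-ratio scaling and without mms21RINGD replicate 2 or 3 or WT replicate 2. BCD1, needed for C/D snoRNAs, was not called either (0.15 ± 0.068, adjusted p = 0.108). Of 14 factors for transcription end, processing and decay, 2 were higher, 3 lower and 9 not called. The termination helicase gene SEN1 had 37.7, 40.6 and 38.7 RPKM in mms21RINGD, against 23.5, 24.7 and 24.3 RPKM in WT (0.67 ± 0.059, adjusted p = 0.000299). Its partner NAB3 rose as well (0.50 ± 0.099, adjusted p = 0.00697), a call lost under quantile normalization. NRD1, the remaining member of that complex, was not called (0.11 ± 0.10, adjusted p = 0.371), and its genotypes overlapped. LHP1, the La protein, fell (-0.56 ± 0.11, adjusted p = 0.00601), as did MTR4, a helicase of the exosome (-0.47 ± 0.12, adjusted p = 0.0172), and TGS1, which hypermethylates snoRNA caps (-0.27 ± 0.078, adjusted p = 0.0258). The call of MTR4 was lost without mms21RINGD replicate 2 or 3 or WT replicate 2 or 3, and that of TGS1 without mms21RINGD replicate 1 or 3, WT replicate 2 or 3, or under own-ratio scaling. RNT1, which cuts clustered precursors, was not called (-0.29 ± 0.13, adjusted p = 0.093), and neither was DBR1, which opens lariats (0.12 ± 0.069, adjusted p = 0.177).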

How the data were processed

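RNA-seq of 3 mms21RINGD and 3 WT libraries was used. Per the submitters' processing notes, CASAVA 1.8.2, TopHat2 2.0.8 and edgeR 3.8.6 were used with sacCer3; for the read counter and its strandedness, the sources used here give nothing. The authors deposited RPKM values. Multiplied by the RefSeq R64 gene span, 99.8% of values of 6162 matched features gave whole reads within 0.02 read, and these reads were used for shares, host remainders, counting intervals and an added voom fit. Features averaging 1 RPKM or more over the 6 libraries were fitted on log2(RPKM + 1), which understates changes of low features, with limma 3.58.1 (R 4.3.3, trend, two-sided), Benjamini-Hochberg adjusted over 6731 features, at 0.05. The fit was tested on simulated data of 5902 genes, where 91% of differences of 0.5 (log2) were recovered. That simulation gave every gene the same small spread, changed only a small set of well-read genes and added no shift of a whole library. It therefore checks that the fit works and does not measure its power for these snoRNAs. Chromosome XII regions used the 5908 fitted features with a RefSeq position.

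Every snoRNA could be named. Given in full were the 6 most abundant, the 6 largest called rises and falls, and those with roles in cleavage, acetylation or assembly. Those in introns or clusters were also given. From the protein lists, up to 4 genes with the smallest p were named. Others there were chosen after their values were seen (TGS1, RNT1, DBR1, RVB1 and NRD1). Members, lists and tests were chosen with earlier results of these data known, so the lists got no set test. Replicate numbers did not pair the libraries. Alternatives covered the pseudocount (0.1 and 5), the filter (none and 10 RPKM), scaling, the model, a replicate block and leaving out each library. Box class and targets come from RefSeq notes and a hand-made table.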

Additional observations from a re-analysis of the deposited data

How the results depend on the processing

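The counts of snoRNAs called moved with the scaling and with single libraries. The main test gave 14 higher and 22 lower in mms21RINGD. Median-of-ratios scaling gave 2 higher, beside 25.4% of all features, more falls than the main test and a median log2 fold change of -0.28. Quantile normalization gave 26 higher and 21 lower, beside 20.3% and 34.6% of all features. Leaving out each library in turn gave 8 to 16 higher, 11 to 32 lower and a median of -0.07 to 0.01. A replicate block gave 14 lower and 10 higher; same-numbered libraries deviated with correlations of -0.14, 0.05 and -0.10, so the numbers were not taken as pairs. The added voom fit on recovered reads gave 13 higher and 20 lower. For the replicate block and the voom fit, the shares over all features are not given here, so these counts have no background beside them.

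Under median-of-ratios scaling these values changed sign: snR17b was at -0.14, snR189 at -0.014, snR43 at -0.0064, snR57 at -0.24, snR74 at -0.020, snR86 at -0.24 and RPS22B at -0.021. Under quantile normalization snR42 was at 0.25, snR46 at 0.22, snR84 at 0.13, BCD1 at -0.27, PIH1 at -0.0061, PCF11 at -0.27 and DBR1 at -0.36. With the reads of snR44 taken out, RPS22B was at -0.13. The cause of these changes was not tested. A further 16 snoRNAs under median-of-ratios scaling and 5 under quantile normalization changed sign with no call on either side. Of the calls, 2 of 14 rises and 10 of 22 falls held in the 18 settings that can change a snoRNA value. Every other rise was lost under median-of-ratios scaling, which lowers all fold changes, and no fall was lost there. These counts therefore do not compare how stable rises and falls are. Leaving out WT replicate 1 lost no call. The 17 snoRNAs under 100 RPKM rest on few reads, which limits what differences can be detected among them.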
